A study of Mus musculus with 4 samples.

Results

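The response to stem cell factor (SCF) was measured in EML cells carrying the KIT mutant Del417-419insY, as the difference between 2 of the 4 arrays of the series: the culture given SCF at 250 ng/mL for 48 h minus the culture without SCF. EML is a mouse lymphohematopoietic progenitor line that is normally grown with SCF. Del417-419insY removes a short stretch of the extracellular part of the receptor and inserts a tyrosine; the other line of the series carries D816V, a substitution in the phosphotransferase domain of the kinase, and was treated in the same way. In both lines, with and without SCF, the KIT construct had been delivered by a pLXSN retrovirus, cells had been selected with geneticin and then in medium free of growth factor, and those expressing KIT had been sorted. Each line is therefore 1 selected population, and the sources do not say whether its own Kit gene was still expressed. Nor do they say how long the untreated cultures were kept, so time in culture and SCF cannot be told apart.

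SCF is the ligand of KIT, a receptor tyrosine kinase of blood progenitors and mast cells. Binding brings receptor molecules together, and the active kinase passes signals through PI3K and AKT, the RAS and ERK cascade, SRC family kinases and STAT factors, while SOCS proteins, SPRED and DUSP proteins and CBL ubiquitin ligases dampen them. Mutant KIT that signals without ligand lets cells grow without SCF, and the comparison addresses what added ligand still changes in such cells.

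Levels are log2 values around a reference point that is unknown and particular to each probe set, so a difference between arrays can be read and an absolute level, or the presence of a cell type, cannot. Each side of the comparison is 1 array. No difference below has a replicate or a test, and "rose" and "fell" are used only for a 2-fold difference or more (1 or more on the log2 scale). The value of a gene is the mean of its probe sets. The only internal measure of error is the agreement of probe sets of 1 gene: among 2201 genes with 2 or more, the SD of their SCF differences had a median of 0.15 and a 95th percentile of 0.57. It covers neither repeat cultures nor repeat arrays.

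SCF was accompanied by 2-fold differences in few genes of Del417-419insY cells. Of 6404 genes, 21 rose (0.328%) and 35 fell (0.547%), and 91.7% lay within 0.5 of no change; the median difference was 0.03. After quantile normalization of the 4 arrays 41 genes rose and 45 fell, so the share of rises among them went from 37.5% to 47.7%. The rises included the stress regulators Nupr1 and Trib3, the transcriptional repressor Gfi1, metallothionein Mt2 and the hypoxia-responsive gene Ankrd37, and the falls were led by the mast cell proteases Mcpt4 and Tpsb2. At a lower limit of 1.5-fold, 137 genes (2.14%) were higher and 183 (2.86%) lower. Just inside the 2-fold limit lay Scpep1 (1.01) and Gramd3 (1.02) on the higher side and Ripk3, Snhg3 and Ccr2 (-1.01 each) on the lower; just outside it lay Pdzph1 (0.99) and Atf5 (0.99), and Fndc3a (-0.96) and Rcsd1 (-0.94).

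Klrb1b, which encodes a lectin-like receptor of natural killer cells, had the largest rise. Its level was 2.29 without SCF and 4.0 with SCF, a 3.27-fold difference, and its 2 probe sets gave 1.45 and 1.97. Mt2, a metal-binding metallothionein, went from -1.75 to -0.21, or 2.92-fold up, while its neighbour in the family Mt1 differed by 0.20 only. Gfi1, a zinc finger repressor that guides stem cells and granulocyte development, went from -2.47 to -0.99, or 2.80-fold up, on its 1 probe set. These 3 genes had D816V differences of 0.04, 0.01 and -0.72.

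Among the other rises, Myh10, the heavy chain of non-muscle myosin IIB, went from 1.53 to 2.82, and Rflna, a filamin-binding protein, from -0.03 to 1.04. Aif1l, an actin-binding relative of allograft inflammatory factor, differed by 1.23. Kalrn went from -0.59 to 0.66. Fam20a, a secretory pathway pseudokinase, differed by 1.25, the glutathione transferase Gstm1 by 1.21 on each of 2 probe sets to within 0.01, the carbonic anhydrase Car2 by 1.16 and the lipid droplet protein Plin3 by 1.08. Cox6a2, the muscle-type subunit 6A of cytochrome c oxidase, differed by 1.36, with 1.72 and 0.996 on its 2 probe sets; none of the other 54 measured respiratory chain genes was 1.5-fold higher. The remaining genes above the limit were Gpr183 (1.07), an oxysterol receptor, Jakmip1 (1.05), the hexokinase Hk3 (1.05) and the granule protease Ctsg (1.04).

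The largest fall was that of Mcpt4, a chymase stored in connective tissue type mast cells, from -1.51 without to -3.65 with SCF, or 4.40-fold. Tpsb2, a mast cell tryptase, went from -1.15 to -3.10, or 3.86-fold down. Hbb-bh1, an embryonic beta-like globin, went from 3.16 to 1.5, and its 3 probe sets agreed closely, at -1.71, -1.68 and -1.59. Scai, a repressor of the MRTF and SRF coactivators, went from 1.33 to -0.39, and Fgfr1op2 from 1.32 to -0.34.

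Among the other falls, Nck2, an adaptor that links phosphotyrosine to actin, went from 3.06 to 1.73. Gsk3b, the kinase that AKT inhibits, fell by 1.33 on the log2 scale, with -1.5 and -1.16 on its 2 probe sets, and Inpp4b, a phosphatase that removes a PI3K product, fell by 1.21. Lpxn, a paxillin relative at adhesion sites, was at -1.33, the casein kinase gene Csnk1a1 at -1.13 and the transcription factor Zeb2 at -1.32. Myl10, Khsrp, Mid1, Gas2l3, Neil3 and the locus annotated as Mir1949 were at -1.62, -1.41, -1.40, -1.32, -1.30 and -1.29. The antiviral synthetase Oas3 fell by 1.22, and the receptors Cd300lf, Ccr9, Il31ra and Ccr2 by 1.10, 1.06, 1.01 and 1.01. The rest were Setd3, H3c4, Gdap10, Ints6, Ccnb1ip1, Zmym4, Gzma, Tasor2, Dtl, Nfat5, Alkbh8, Snhg3 and Ripk3, between -1.20 and -1.01. Of the genes past the limit, 15 of the 21 that rose and 28 of the 35 that fell had a single probe set, which no other could check.

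**Figure D1:**
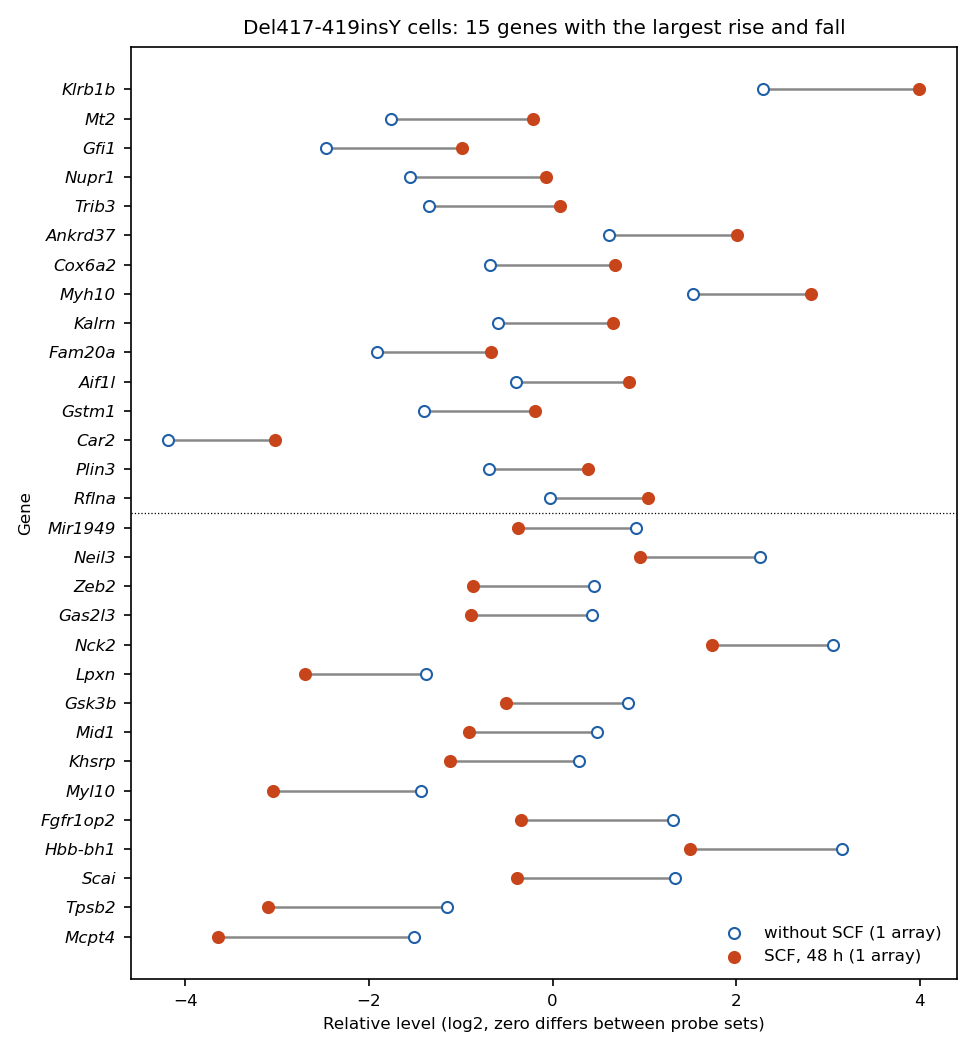
Relative level (log2) on the array without SCF (open circles) and with SCF for 48 h (filled circles) in Del417-419insY cells, for the 15 genes with the largest rise and, below the dotted line, the 15 with the largest fall. Each circle is 1 array; levels of different genes cannot be compared, and the longest line is that of Mcpt4, from -1.51 to -3.65.

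With the same ligand and time in D816V cells, 21 genes rose (0.328%) and 84 fell (1.31%). No array is shared by the SCF differences of the lines, but a test of the difference between them is not possible with 1 array per group. Across the 6404 genes, which are not independent replicates, the differences of the lines correlated at 0.45 by Pearson's and 0.46 by Spearman's coefficient. Of the 35 genes that fell in Del417-419insY cells, 33 also had a difference below 0 in D816V cells, where 56.0% of all genes did, 15 fell there too, and their median there was -0.89 against -1.20 in Del417-419insY cells. The rises were less alike in size: 14 of 21 had a difference above 0 in D816V cells, where 43.9% of all genes did, with a median of 0.22 against 1.23, and Ankrd37 and Rflna rose in both lines. Within 0.5 of no change in D816V cells were 9 of the 21, among them Klrb1b, Mt2, Myh10 and Gstm1 (-0.10), and 8 of the 35, among them Oas3 (0.01) and Gzma (-0.21); of all 6404 genes 86.4% were. A 2-fold difference in opposite directions was seen for 4 genes: Trib3, Nupr1 and Cox6a2 rose in Del417-419insY cells and were at -1.75, -1.72 and -2.28 in D816V cells, and Hbb-bh1 fell and was at 1.11.

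**Figure D2:**
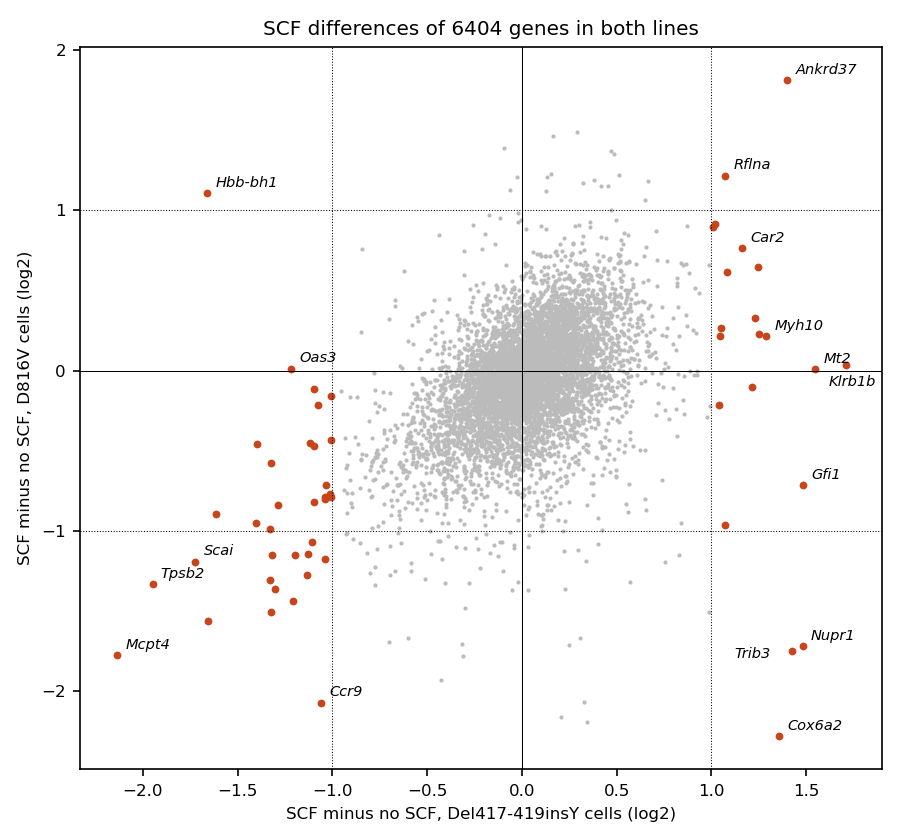
SCF minus no SCF difference (log2) of 6404 genes in Del417-419insY cells (horizontal axis) and D816V cells (vertical axis), each from 2 arrays; dotted lines mark 2-fold. The 56 genes past 2-fold in Del417-419insY cells are drawn in red; 33 of the 35 on the left lie below the horizontal zero line, and Trib3, Nupr1 and Cox6a2 lie at the lower right.

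ATF4 is a transcription factor that cells make when amino acids are short or misfolded proteins pile up; it induces amino acid transporters, enzymes of serine and asparagine synthesis, tRNA synthetases and further regulators such as DDIT3 and TRIB3. Many of its target promoters hold a composite element of the form TGATGNAA. The letters were searched on both strands of the 250 bases before the start sites in RefSeq (GRCm38.p6); the windows are shown to set a gene that rose and a gene that did not beside their letters. A match was found for 8 of the 30 measured list members with an entry (26.7%) and for 3.91% of all 27025 genes with one. The sequences of Nupr1 and Pck2, and of Asns, which holds a match and differed by 0.10 only, follow with the matches in capitals.
Nupr1, chr7:126625471-126625720, minus strand: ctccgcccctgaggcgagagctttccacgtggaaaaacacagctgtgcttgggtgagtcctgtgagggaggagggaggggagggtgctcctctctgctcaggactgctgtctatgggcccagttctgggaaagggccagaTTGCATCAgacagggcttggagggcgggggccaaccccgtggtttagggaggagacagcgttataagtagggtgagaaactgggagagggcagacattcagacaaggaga
Pck2, chr14:55540016-55540265, plus strand: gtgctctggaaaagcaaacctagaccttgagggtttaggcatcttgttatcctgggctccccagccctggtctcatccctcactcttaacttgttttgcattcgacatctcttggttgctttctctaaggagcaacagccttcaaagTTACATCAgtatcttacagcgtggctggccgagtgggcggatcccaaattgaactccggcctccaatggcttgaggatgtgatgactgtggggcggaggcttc
Asns, chr6:7693210-7693459, minus strand: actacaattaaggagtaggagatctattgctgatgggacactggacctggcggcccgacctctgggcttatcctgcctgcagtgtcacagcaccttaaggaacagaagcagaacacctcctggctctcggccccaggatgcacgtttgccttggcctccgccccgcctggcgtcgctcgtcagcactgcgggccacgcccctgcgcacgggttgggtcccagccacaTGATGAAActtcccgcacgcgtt
A match is a description of the letters and not a binding site, and the windows of Trib3, Atf5 and Ddit3 held none.

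The members of this and the other lists were chosen with earlier results of these data known. Their shares beside all genes are therefore descriptions and not independent support. Among the 35 measured genes of ATF4 and amino acid stress, 30 (85.7%) had a difference above 0 in Del417-419insY cells, against 55.1% of all genes. The sizes were small for most of them: the list median was 0.17, against 0.03 for all genes. Above the 1.5-fold limit were 5 genes, where 2.14% of all genes were, and below it was Slc1a5, where 2.86% were. Nupr1, a small chromatin protein induced by stress, went from -1.56 to -0.07, with 1.79 and 1.18 on its 2 probe sets. Trib3, a pseudokinase that restrains AKT and ATF4, went from -1.34 to 0.09, with 1.30 and 1.55. Atf5, a related leucine zipper factor, went from -0.15 to 0.83. Pck2, mitochondrial phosphoenolpyruvate carboxykinase, differed by 0.84, with 0.67 and 1.01. Ddit3 (CHOP) differed by 0.83, but its probe sets gave 1.45 and 0.20. Atf4 itself was at 0.06 and the amino acid enzymes Asns and Psat1 at 0.10 and 0.01. The serine phosphatase Psph was at -0.51 and the glutamine transporter Slc1a5 at -0.70, with 0.01 and -1.40 on its 2 probe sets.

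In D816V cells 1 of these 35 genes had a difference above 0, where 43.9% of all genes did. The list median there was -0.84, with 23 genes lower by 1.5-fold or more, where 6.45% of all genes were, and none higher. Atf5, Ddit3 and Pck2 were at -1.5, -1.15 and -0.95, and Chac1, a glutathione-degrading enzyme, was at -2.19 against 0.34 in Del417-419insY cells. The 19 measured cytosolic aminoacyl-tRNA synthetase and complex genes, which load amino acids onto tRNA, stayed within 1.5-fold in Del417-419insY cells, between -0.20 (Eef1e1) and 0.38 (Sars), with a median of 0.03; in D816V cells the median was -0.45.

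**Figure D3:**
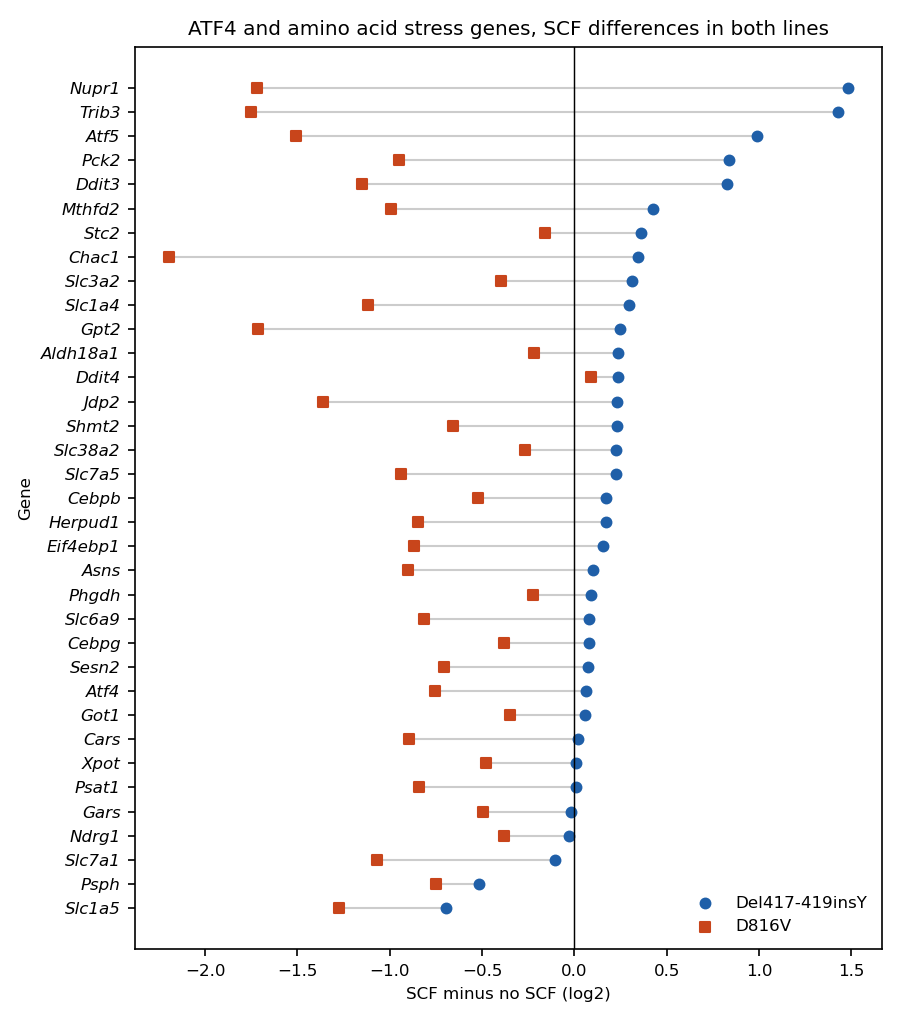
SCF minus no SCF difference (log2) of the 35 measured ATF4 and amino acid stress genes in Del417-419insY cells (circles) and D816V cells (squares), 1 array per condition. In Del417-419insY cells 30 genes lie right of zero, and in D816V cells Ddit4 alone does.

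Mast cells store chymases, tryptases, histamine and serotonin in granules and carry the high-affinity IgE receptor; KIT drives their growth. Of 23 measured mast cell genes, 2 fell (Mcpt4 and Tpsb2) and 1 rose (Ctsg). At 1.5-fold 4 were lower and 2 higher, where 2.86% and 2.14% of all genes were, and the list median was -0.19. Besides the proteases, Slc6a4, the serotonin transporter, went from -2.65 to -3.51, and Ms4a2, the beta chain of the IgE receptor, from -1.85 to -2.46. The alpha chain Fcer1a was at -0.53 and the gamma chain Fcer1g at 0.16. Hdc, which makes histamine, was at -0.43, with -1.03 and 0.17 on its 2 probe sets. The chymase gene Cma1 differed by 0.76 and Mcpt2 by 0.40, both opposite in sign to Mcpt4. The windows before the start sites of Mcpt4 and Cma1, chymases whose differences had opposite signs, are shown with GATA matches (NGATAN with A or T first and A or G last, on either strand) in capitals.
Mcpt4, chr14:56062311-56062560, minus strand: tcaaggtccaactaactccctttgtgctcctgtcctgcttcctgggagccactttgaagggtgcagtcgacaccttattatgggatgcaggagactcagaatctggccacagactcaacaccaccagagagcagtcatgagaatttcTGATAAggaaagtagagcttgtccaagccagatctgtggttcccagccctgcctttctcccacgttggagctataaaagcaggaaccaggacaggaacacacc
Cma1, chr14:55944676-55944925, minus strand: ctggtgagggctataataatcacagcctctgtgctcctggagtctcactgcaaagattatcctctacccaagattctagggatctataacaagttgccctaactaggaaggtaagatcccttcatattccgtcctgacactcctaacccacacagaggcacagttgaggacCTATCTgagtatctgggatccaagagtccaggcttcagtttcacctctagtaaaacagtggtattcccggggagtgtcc
Each window held 1 match, as did 10 of the 19 mast cell genes with an entry in at least 1 copy (52.6%), against 29.7% of all 27025 genes. The lineage factors Gata2 and Mitf differed by 0.04 and -0.34. In bulk RNA, fewer cells of a type and less RNA per cell cannot be told apart, and neither can be told from a change in the progenitors themselves. In D816V cells the list median was -0.51, with 11 of 23 genes lower by 1.5-fold or more (6.45% of all genes were).

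Marker lists of other blood lineages are read against the 2.14% of all genes that were higher and the 2.86% that were lower at 1.5-fold. Of 18 erythroid genes 1 rose (Car2) and 1 fell (Hbb-bh1), with the erythroid factor Klf1 at 0.46, Gata1 at -0.18 and the erythropoietin receptor Epor at 0.23. None of 12 megakaryocyte genes was 1.5-fold different; they lay between -0.41 (Fli1) and 0.43 (Itgb3). Of 18 granulocyte and monocyte genes 3 passed 1.5-fold upward and 2 downward. Ctsg and the neutrophil protease Prtn3 (0.60) were higher with the integrin chain Itgb2 (0.77), and the chemokine receptor Ccr2 and the membrane protein Ms4a3 (-0.80) were lower, while Mpo was at 0.18. Among 14 measured stem and progenitor genes Gfi1 alone passed 1.5-fold. Of 5 lymphoid genes Satb1 (0.59) did, and none of 3 dendritic genes did, with Cd74 at 0.57. Of 4 fibroblast and endothelial genes Tie1 (-0.76) was lower and none higher. Among 43 transcription factors of blood lineages Gfi1 alone passed 1.5-fold, and the lowest was Zbtb16 (-0.51). The part of such cells in the differences was not tested.

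Most genes of the KIT pathway itself stayed within 1.5-fold, but Nck2, Gsk3b and Inpp4b fell. Kit was at -0.76 without and -0.57 with SCF, a difference of 0.19, with 0.24 and 0.14 on its 2 probe sets; the sources do not say whether these read the construct. Of all genes 2.14% were 1.5-fold higher and 2.86% lower. Of 28 measured genes of KIT and its proximal signalling, none was 1.5-fold higher and 2 were lower, Nck2 and the ubiquitin ligase gene Cblb (-0.88). Their median was 0.14, and Gab2, a docking protein, and Stat5a were at 0.42 and 0.34. Of 16 PI3K and AKT components Gsk3b and Inpp4b alone passed 1.5-fold, both lower, with the catalytic subunits Pik3ca and Pik3cd at -0.42 and 0.16. None of 19 ERK feedback and immediate early genes passed 1.5-fold in either direction. Their range ran from -0.44 (Spred2, with 0.19 and -1.08 on its 2 probe sets) to 0.49 (Etv5), and the feedback phosphatase Dusp6, Egr1 and Myc were at 0.12, -0.28 and -0.05.

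Targets of STAT5 lay on both sides. Of 17 measured genes 3 passed 1.5-fold upward and 1 downward, against 2.14% and 2.86% of all genes. The list median was 0.24, against 0.03 for all genes. Gfi1 and Pim2, a survival kinase that went from -0.14 to 0.72, were higher. Socs3, an inhibitor of cytokine receptors that STAT3 also induces, went from -0.57 to 0.35, with 1.07, 1.03 and 0.64 on its 3 probe sets. Pim1 followed at 0.56. The feedback inhibitor Cish, in contrast, went from 0.36 to -0.43, and Socs2 and Bcl2l1 were at -0.11 and 0.13. The STAT letters TTCNNNGAA stood before the start site of 2 of 12 such genes with an entry, Bcl6 and Socs3, and of 8.13% of all 27025 genes. Of 30 targets of FOXO factors, which AKT signalling holds down, 1 was 1.5-fold higher (Bnip3) and 1 lower (S1pr1, -0.67). Of all genes 2.14% and 2.86% were. Of the 30 targets 21 (70.0%) were above 0, against 55.1% of all genes, with Txnip at 0.57 and Foxo1 at 0.55.

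Cells short of oxygen stabilise HIF factors, which bind a short core in the promoters of glycolytic and mitochondrial quality control genes. Of 37 measured hypoxia genes 2 rose, Ankrd37 and Mt2, against 0.328% of all genes, and 4 in all were above the 1.5-fold limit, against 2.14% of all genes, and none below it. The list median was 0.23, and 27 genes (73.0%) were above 0, against 55.1% of all genes. Ankrd37, an ankyrin repeat protein induced by HIF1, went from 0.61 to 2.01 and was at 1.81 in D816V cells. Bnip3, a mitophagy receptor, went from 0.28 to 0.94 and P4ha1, a collagen prolyl hydroxylase, from -0.28 to 0.38. Pdk1, which closes pyruvate dehydrogenase, was at 0.49, the glucose transporter Slc2a1 at 0.36 and the oxygen sensor Egln3 at 0.24. Of 21 glycolysis genes Hk3 alone passed 1.5-fold, with Pfkl at 0.51 and Hk2 at 0.12. The core letters ACGTG or GCGTG, searched on both strands with overlapping matches counted apart, were found before the start site of 30 of 32 hypoxia genes with an entry (93.8%) and of 41.5% of all 27025 genes. Ankrd37 and Bnip3, which were higher by 1.5-fold or more in both lines (Bnip3 at 1.18 in D816V cells), are shown with the matches in capitals.
Ankrd37, chr8:45999851-46000100, minus strand: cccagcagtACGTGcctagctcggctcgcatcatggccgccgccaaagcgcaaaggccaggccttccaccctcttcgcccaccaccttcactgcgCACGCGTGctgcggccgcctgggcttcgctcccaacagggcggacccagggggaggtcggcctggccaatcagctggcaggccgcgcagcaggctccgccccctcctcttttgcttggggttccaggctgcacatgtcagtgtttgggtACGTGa
Bnip3, chr7:138909507-138909756, minus strand: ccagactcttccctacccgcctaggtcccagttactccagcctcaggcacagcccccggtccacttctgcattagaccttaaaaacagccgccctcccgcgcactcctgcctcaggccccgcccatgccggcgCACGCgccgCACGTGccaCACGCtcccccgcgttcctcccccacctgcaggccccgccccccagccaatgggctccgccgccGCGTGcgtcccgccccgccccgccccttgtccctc
The window of Ankrd37 held 4 matches and that of Bnip3 5; 6.58% of all 32851 windows held 3 or more.

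Ribosome biogenesis and DNA replication genes lay mostly below 0 and by small amounts. Members past 1.5-fold are read against the 2.14% of all genes that were higher and the 2.86% that were lower at that limit. Of 56 ribosome biogenesis genes 50 (89.3%) had a difference below 0, against 44.7% of all genes, with a median of -0.17. The nucleolar genes Noc2l and Nop58 (-0.81 and -0.79) were 1.5-fold or more lower and none was higher; nucleolin (Ncl) was at -0.55, the RNA polymerase I subunit gene Polr1b at -0.52, fibrillarin (Fbl) near 0 and Utp14a at 0.40. Of 46 genes of DNA replication and entry into S phase 39 (84.8%) were below 0, with a median of -0.12. The uracil glycosylase Ung and the factors E2f8 and E2f1 (-0.77, -0.69 and -0.60) were 1.5-fold or more lower, the helicase subunit Mcm4 was at -0.46 and Cdk4 at 0.26. Genes of mitosis lay on the other side. Of 40 members 29 (72.5%) were above 0, against 55.1% of all genes, with a median of 0.20 and Kif22, Hmmr and Anln at 0.55, 0.51 and 0.43, although the centromere gene Cenpk (-0.85) was lower. D816V cells had medians of -0.11, -0.17 and 0.13 for the 3 lists.

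**Figure D4:**
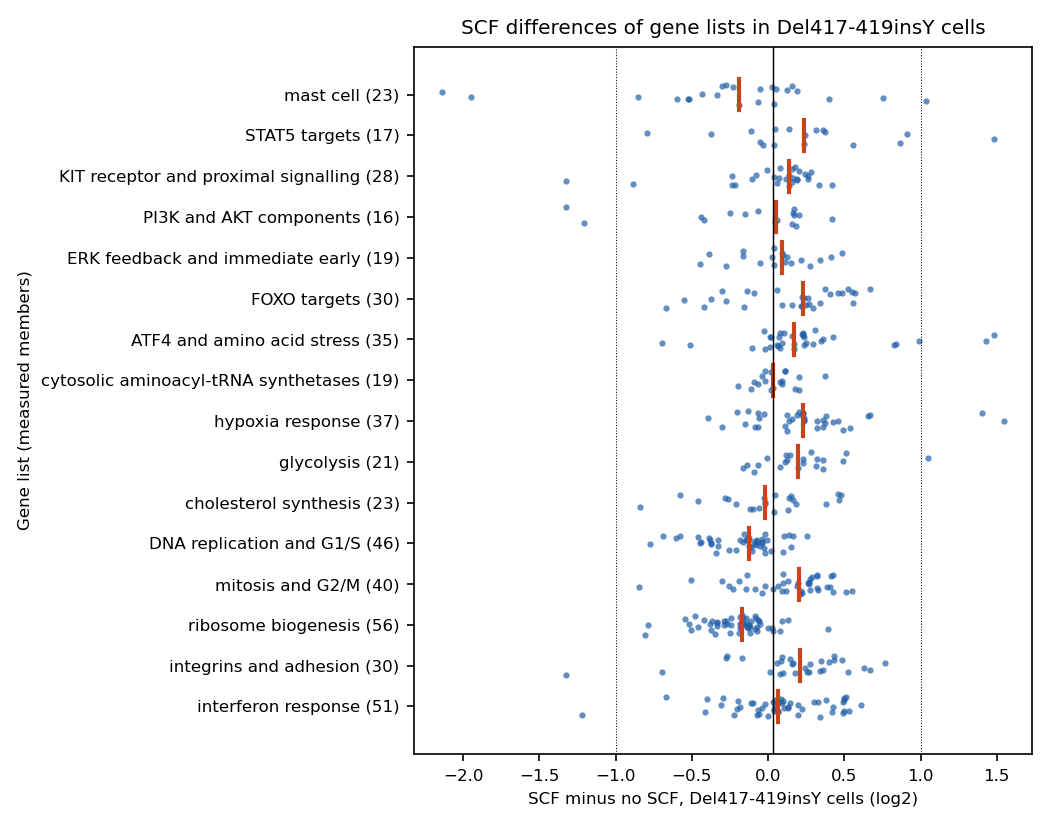
SCF minus no SCF difference (log2) in Del417-419insY cells for the measured members of 16 gene lists (points, spread vertically for legibility), with the list median as a red bar, the median of all genes (0.03) as a solid line and 2-fold as dotted lines. Ribosome biogenesis and DNA replication genes lie mostly left of the solid line, and ATF4, hypoxia and mitosis genes mostly right of it.

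In D816V cells 7 of 23 cholesterol synthesis genes were 2-fold higher, against 0.328% of all genes. Their median there was 0.76, against -0.05 for all genes. Cholesterol synthesis had a median of -0.02 in Del417-419insY cells. Its isomerase gene Idi1 was at -0.84 there, with -1.08 and -0.60 on its 2 probe sets, Insig1 at -0.58, Hmgcs1 at -0.21 and Sqle at -0.10. Counts in Del417-419insY cells are read against all genes, of which 2.14% were higher and 2.86% lower at 1.5-fold and 0.328% rose. Of 20 fatty acid synthesis genes the desaturase Fads1 (-0.69) was lower at 1.5-fold and none higher. Of 30 integrin and adhesion genes 25 (83.3%) were above 0, against 55.1% of all genes, with a median of 0.21; Itgb2, the tetraspanin Cd82 (0.67) and the cadherin Fat1 (0.63) were 1.5-fold or more higher, and Lpxn and Itgae (-0.70) lower. Of 51 interferon response genes Oas3 and Irf7 (-0.67) were lower and the sensor Ifih1 (0.61) higher at 1.5-fold, with a median of 0.07. None of 21 p53 targets, 21 apoptosis regulators or 18 NF-kB targets passed 1.5-fold. Of 32 redox genes Mt2 and Gstm1 rose, Gstt2 (0.62) was higher at 1.5-fold, and Akr1c13 (-0.73) and heme oxygenase Hmox1 (-0.70) were lower. Among 13 cytokine genes Il15 (0.89) was higher, from -2.47 to -1.58. Among 32 cytokine and growth factor receptors Ccr2 alone passed 1.5-fold as the mean of its probe sets. The 4 probe sets of Ccr2 lay between -1.509 and -0.013. Igf1r had a mean of -0.002, but its 5 probe sets included 1.504 and -1.248, past 2-fold in opposite directions. Its remaining probe sets lay between -0.511 and 0.421. Of 32 chaperone genes Hsp90aa1 (-0.60) was lower and none higher. Of 49 lysosome and autophagy genes Scpep1 and Bnip3 were 1.5-fold or more higher and none lower. Among 115 solute carriers 1 was higher (Slc50a1, 0.63) and 3 were lower, Slc6a4, Slc1a5 and Slc6a20a (-0.64).

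The gene means conceal a larger set of probe sets that fell. Of all 10861 probe sets 45 (0.414%) were 2-fold or more higher with SCF and 226 (2.08%) lower. Of the 226, 85 belong to the 964 probe sets without a gene symbol, 8.82% of them, against 137 of the 9633 with 1 symbol, 1.42%. All of the 85 also had a difference below 0 in D816V cells, and 27 were 2-fold lower there. The 964 unnamed probe sets as a whole had a D816V median of -0.26, and 51 of them (5.29%) were 2-fold lower. The unnamed probe sets included the largest differences of the comparison in either direction: 1420310_at went from -0.01 to 3.71 and 1447329_at from 0.11 to 3.27, and 1457484_at from 1.76 to -1.04. In D816V cells they differed by 2.55, 2.66 and -2.03.

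In 87 of the 2201 genes with several probe sets, 1 probe set or more fell 2-fold while another lay above -0.5. The mirror case, a 2-fold rise beside a probe set below 0.5, was seen in 4 of the 2201. The examples that follow were chosen after their values were seen. Ranbp2, a nuclear pore protein, had a probe set that went from 1.38 to -1.23, at -2.60, while its others were at -0.02 and -0.08. Cpsf6, a cleavage factor that sets the end of transcripts, had 1 probe set at -2.42 and 5 between -0.31 and -0.18. Sfpq, a splicing factor of nuclear paraspeckles, had 1 at -2.27 and 3 between -0.24 and 0.16. Further examples had lowest and highest values of -1.81 and -0.19 for the matrix protein Matr3, -1.75 and -0.14 for the splicing factor Rbm25, -1.68 and -0.07 for Prpf38b, -1.32 and 0.21 for Rbm39 (9 probe sets), and -1.40 and -0.18 for the nuclear noncoding RNA Malat1. The cyclin gene Ccnd1 had -1.11, -0.17 and 0.10, and the kinase gene Cdk6 -1.40, -0.01 and 0.08.

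Over the 87 genes the lowest probe set had a median difference of -1.26 and the highest -0.01, values that the choice of these genes fixes. The D816V arrays had no part in that choice. There, all 87 of the lowest probe sets had a difference below 0, with a median of -1.13, and 55 were 2-fold lower, against 2.68% of all probe sets. By the same criterion D816V cells had 106 such genes on the lower side and 5 on the higher, out of the same 2201. On the lower side 53 were common to the lines, 60.9% of the Del417-419insY genes and 50.0% of the D816V genes. Which part of the transcript each probe set reads was not examined, and the part of RNA quality or of the array in this pattern was not tested.

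**Figure D5:**
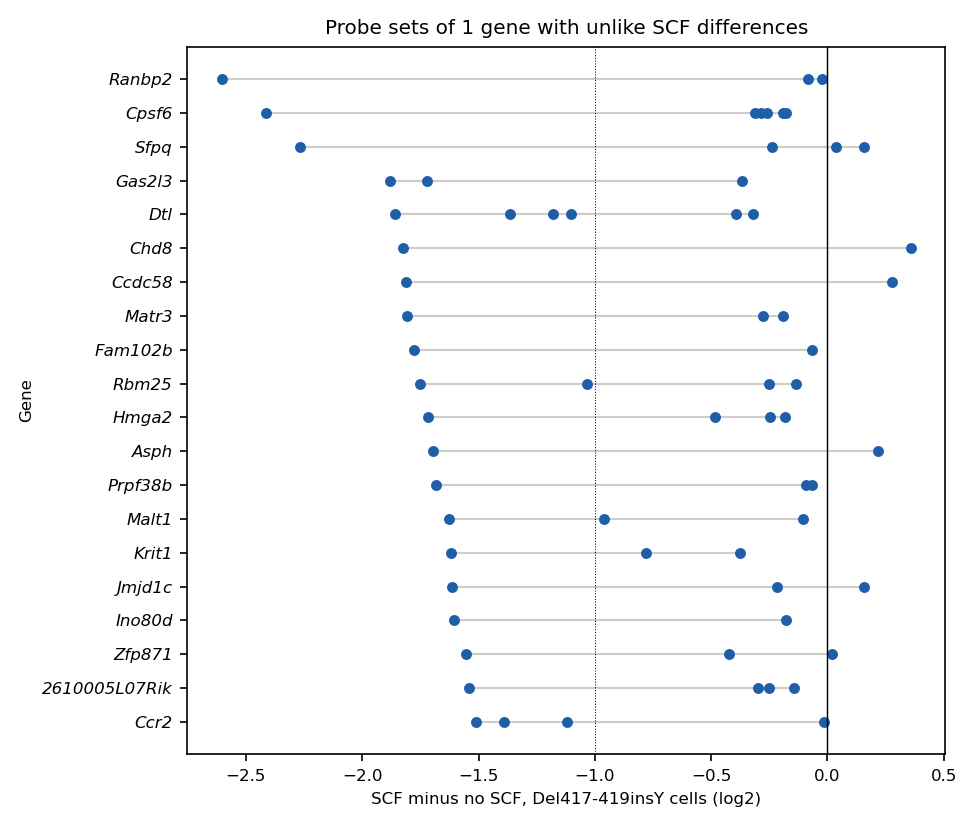
SCF minus no SCF difference (log2) in Del417-419insY cells for every probe set (points) of the 20 genes with the lowest probe set among the 87; the dotted line marks a 2-fold fall. In Ranbp2, Cpsf6 and Sfpq 1 probe set lies below -2.2 and the others lie between -0.31 and 0.16.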

How the data were processed

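RNA of 4 cultures, 1 array each, was hybridised to Affymetrix M430 2.0 mouse arrays and quantified with GCOS, per the labels' protocols and design text. The authors' deposited table holds log2 values; RMA is named in the submitters' processing notes. The version, log base, reference level and filter are not stated, and log2 is taken because RMA gives it. The table holds 10861 of the 45101 probe sets stated for the array, so shares refer to these. Signal over background was not examined; precision is limited by the number of arrays.

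Gene symbols came from the platform annotation: 9633 probe sets had 1 symbol, 264 several and 964 none; 9622 gene IDs matched RefSeq (GRCm38.p6), whose symbols were used, and 11 kept theirs. Probe sets with 1 symbol were averaged into 6404 genes. Differences are SCF minus no SCF. With 1 array per group there is no test, and genes were counted at 2-fold and 1.5-fold; "1.5-fold or more higher" includes genes past 2-fold. Named genes are the 15 largest in each direction and every other gene past 2-fold, the extreme and key members of each list, and Kit. The members of the 35 gene lists overlap (100 of the 903 measured members are in more than 1 list). Lists and members were chosen with earlier results of these data known. Alternatives, computed with limma 3.58.1 in R 4.3.3 and pandas 2.3.3, covered scaling, the value of a gene, probe set classes, a filter on the genes of lowest mean value and the fold limit. The code for differences and counts was checked on simulated data, with fixed differences added to whole genes and no noise. That check does not measure the error of the differences.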

Additional observations from a re-analysis of the deposited data

Results flagged for a closer look

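In 4 genes the SCF difference was 2-fold or more in each line and opposite in direction, which set them apart; the difference between the lines was not tested, since each group is 1 array. Cox6a2 was at 1.36 in Del417-419insY and -2.28 in D816V cells, Nupr1 at 1.48 and -1.72, Trib3 at 1.43 and -1.75, and Hbb-bh1 at -1.66 and 1.11. Each has 2 or 3 probe sets, and in each gene all of them had the sign of the gene's mean in both lines; each gene has a probe set ending in _x_at, a class that can read related sequences.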

How the results depend on the processing

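No paired analysis was possible because each group is 1 array and the labels carry no replicate numbers. The 21 higher genes became 41 after quantile normalization of the 4 arrays, 12 without the genes of lowest mean value, 6 among genes with 2 or more probe sets (an alternative chosen after seeing the data, with fewer genes counted) and 137 at 1.5-fold. The 35 lower genes became 96 with the probe set of the highest mean, of which 34 were among the 35, and 7 among genes with 2 or more probe sets and 183 at 1.5-fold. The other counts were within 1.5 times. Of the 56 genes, 44 kept 2-fold under median centring, quantile normalization and both loess settings, including the 30 largest, and none changed sign under any alternative that gave it a value; 13 lost 2-fold under 1 or more, mostly by a little, while Ccr2 was at -0.71 after quantile normalization and at -0.01 with the probe set of the highest mean. The 4 scalings changed the sign of the median of 2 of 35 lists, cholesterol synthesis (up to 0.04) and apoptosis regulators (up to 0.04). The genes with a fallen and a nearly flat probe set numbered 76 to 101 over these scalings, against 87 as deposited, and 3 to 13 on the higher side, against 4. With 1 array per side, spread between cultures is unknown.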
